A study of Mus musculus with 9 samples.

Results

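RING1B occupancy was examined at 10 homeobox genes that subdivide the embryonic brain: Otx1, Otx2, Emx1, Emx2, En1, En2, Gbx1, Gbx2, Vax1 and Dmbx1. All peaks were taken whose nearest gene, as the authors assigned it, is exactly one of these names. They number 21 of 2347 peaks in the list of Eed+/+ mouse embryonic stem cells (mESCs) and 15 of 1810 peaks in the list of Eed-/- mESCs. Every one of the 10 genes had a peak in Eed+/+ cells and 9 had a peak in Eed-/- cells, the exception being Otx2.

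The study asked how much RING1B stays on its target genes when H3K27me3 is lost. Its wild-type cells are Eed+/+ mESCs and its mutant cells are Eed-/- mESCs, both labelled as of the C57BL/6 strain and grown on inactivated feeder cells that were removed by pre-plating before fixation. No transgene, drug or other allele is given for either group, and the series labels 9 samples, of which the CBX7 and input samples were not analysed here. Only 1 peak list per genotype was analysed. The Eed-/- list pools 3 RING1B samples that the labels call replicates and the study describes as lanes. No value therefore has a replicate error, and no test between genotypes was possible. The lists hold no transcript or H3K27me3 values by which the cell type or the loss of EED could be checked. Mapped tags, as the study states them, were 16814546 for Eed+/+ and 70343706 for Eed-/-, which makes the latter 4.18 times as deep. A peak needed more than 100 tags in both lists, and 101 tags correspond to 6.01 tags per 1000000 mapped tags in Eed+/+ but to 1.44 in Eed-/- cells.

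RING1B is the E3 ligase subunit of Polycomb repressive complex 1 (PRC1), the complex that adds ubiquitin to histone H2A. EED is needed by PRC2, the complex that methylates H3K27. In mESCs both complexes sit on CpG islands of silent developmental regulators. Otx1 and Otx2 encode transcription factors of the forebrain and midbrain, and Gbx2 one of the anterior hindbrain. The border of Otx2 and Gbx2 expression positions the midbrain-hindbrain organizer, across which En1 and En2 are expressed. Emx1 and Emx2 act in the dorsal telencephalon, Vax1 in the ventral forebrain and optic stalk, and Dmbx1 in the diencephalon and midbrain. Otx2 is also known to be transcribed in mESCs and in the early epiblast.

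The sequence under the summits, the points of highest tag density, is shown first because it differed between peaks of the same gene. Each line gives 200 bp of the mm9 genome, + strand, around the summit of an Eed+/+ peak, with every CG dinucleotide in capitals. Emx2 and En2 each have a summit in their coding sequence and a summit outside the gene, and of these an Eed-/- peak overlapped only the first. In Emx2 a second exonic summit, not shown, went the other way, with 8 CG and no overlap. En2 had further upstream summits nearer to the gene, not shown, with 10 and 11 CG and no overlap. En1 is shown by the peak that runs from upstream across its start, and Gbx2 by its far peak and Dmbx1 by an intronic one, which go against the contrast seen at Emx2 and En2.
Emx2 coding exon, overlapped, chr19:59533947-59534146: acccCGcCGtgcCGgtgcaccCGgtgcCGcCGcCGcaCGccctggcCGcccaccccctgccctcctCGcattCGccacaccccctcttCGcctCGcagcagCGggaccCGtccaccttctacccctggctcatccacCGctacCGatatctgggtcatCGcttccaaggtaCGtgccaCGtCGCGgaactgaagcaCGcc
Emx2 downstream, not overlapped, chr19:59542001-59542200: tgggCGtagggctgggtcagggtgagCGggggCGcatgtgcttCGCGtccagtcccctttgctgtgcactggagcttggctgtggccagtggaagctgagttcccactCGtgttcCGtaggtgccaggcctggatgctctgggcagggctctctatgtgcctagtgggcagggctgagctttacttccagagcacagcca
En2 coding exon, overlapped, chr5:28493266-28493465: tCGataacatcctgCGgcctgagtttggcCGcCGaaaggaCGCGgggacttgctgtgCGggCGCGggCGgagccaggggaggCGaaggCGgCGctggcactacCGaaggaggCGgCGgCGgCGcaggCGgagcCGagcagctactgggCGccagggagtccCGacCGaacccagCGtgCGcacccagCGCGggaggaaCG
En2 far upstream, not overlapped, chr5:28444433-28444632: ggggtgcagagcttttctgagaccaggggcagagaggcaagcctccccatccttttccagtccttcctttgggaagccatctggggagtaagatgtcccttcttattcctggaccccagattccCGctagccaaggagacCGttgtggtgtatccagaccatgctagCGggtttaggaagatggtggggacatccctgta
En1 upstream, not overlapped, chr1:122498124-122498323: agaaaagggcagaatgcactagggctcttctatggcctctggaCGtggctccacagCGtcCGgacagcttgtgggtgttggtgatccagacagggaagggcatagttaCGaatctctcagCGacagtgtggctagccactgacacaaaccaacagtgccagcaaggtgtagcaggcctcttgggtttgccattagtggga
Dmbx1 intron, overlapped, chr4:115611573-115611772: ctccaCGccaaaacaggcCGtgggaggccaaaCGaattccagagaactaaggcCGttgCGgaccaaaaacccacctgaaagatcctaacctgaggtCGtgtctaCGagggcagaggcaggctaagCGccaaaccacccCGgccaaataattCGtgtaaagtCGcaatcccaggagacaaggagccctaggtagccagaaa
Gbx2 far upstream, not overlapped, chr1:91865128-91865327: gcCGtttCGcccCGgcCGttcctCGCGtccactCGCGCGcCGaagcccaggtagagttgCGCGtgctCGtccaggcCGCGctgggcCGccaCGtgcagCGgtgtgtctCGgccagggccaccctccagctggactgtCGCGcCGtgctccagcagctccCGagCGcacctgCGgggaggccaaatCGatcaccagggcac

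The window in the coding exon of Emx2 held 23 CG dinucleotides and the one downstream of the gene 7. At En2 the counts were 28 in the coding exon, 3 in the far upstream window, and 10 and 11 in the nearer upstream windows, which are not shown. The En1 upstream window had 5. The Dmbx1 intronic window held only 11 although an Eed-/- peak overlapped it, and the far upstream Gbx2 window held 26 although none did.
Over the 21 Eed+/+ peaks at the 10 genes, the 11 that an Eed-/- peak overlapped had a median of 19 CG per window (range 11 to 29) and the other 10 a median of 10.5 (range 3 to 26). Over the whole Eed+/+ list these medians were 20 and 15.5. The letters CG, which read the same on both strands, occurred at least once in 21 of 21 windows at these genes and in 99.7% of all 2347 Eed+/+ windows of this length. At least 10 CG were present in 11 of 11 overlapped and 6 of 10 other peaks of the 10 genes, against 94.5% and 81.6% over the list.

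**Figure D1:**
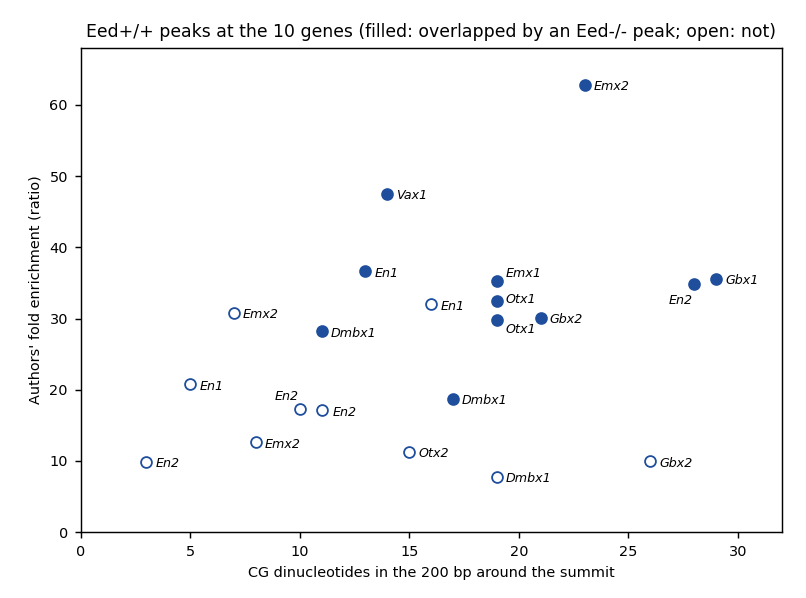
CG dinucleotides in the 200 bp around the summit (x axis) and the authors' fold enrichment (y axis) of the 21 Eed+/+ peaks, labelled by gene; filled points are overlapped by an Eed-/- peak and open points are not. The 4 peaks with fewer than 10 CG are all open, and the open points of Gbx2 (26 CG), Dmbx1 (19 CG), En1 (16 CG), Otx2 (15 CG) and En2 (11 CG) lie among the filled ones on the x axis. Of these, En1, at a fold enrichment of 32, also lies among them on the y axis.

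RING1B peaks of Eed-/- cells at these genes were fewer, narrower and lower than those of Eed+/+ cells. The Eed+/+ peaks covered 91825 bp and the Eed-/- peaks 38258 bp, or 41.7% as much, against 58.9% over the whole lists. The whole-list value also counts Eed-/- peaks that share no base with an Eed+/+ peak, and these genes had no such peak. Of the Eed+/+ bases alone, Eed-/- peaks covered 40.4% at these genes and 42.4% over the list, so this share was similar. An Eed-/- peak overlapped 11 of 21 Eed+/+ peaks by 1 bp or more, which is 52.4% (exact 95% confidence interval 29.8 to 74.3) and close to the 53.1% of all Eed+/+ peaks. Conversely, 15 of 15 Eed-/- peaks shared bases with an Eed+/+ peak (100%, interval 78.2 to 100), against 73.1% of all Eed-/- peaks. By gene, 9 of the 10 genes had peaks in both lists, against 61.4% of all genes that had an Eed+/+ peak. The intervals of shares treat neighbouring peaks of a gene as independent. Those of tags treat tags, which carry no molecular identifiers, as independent molecules, so both cover counting error only.

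**Figure D2:**
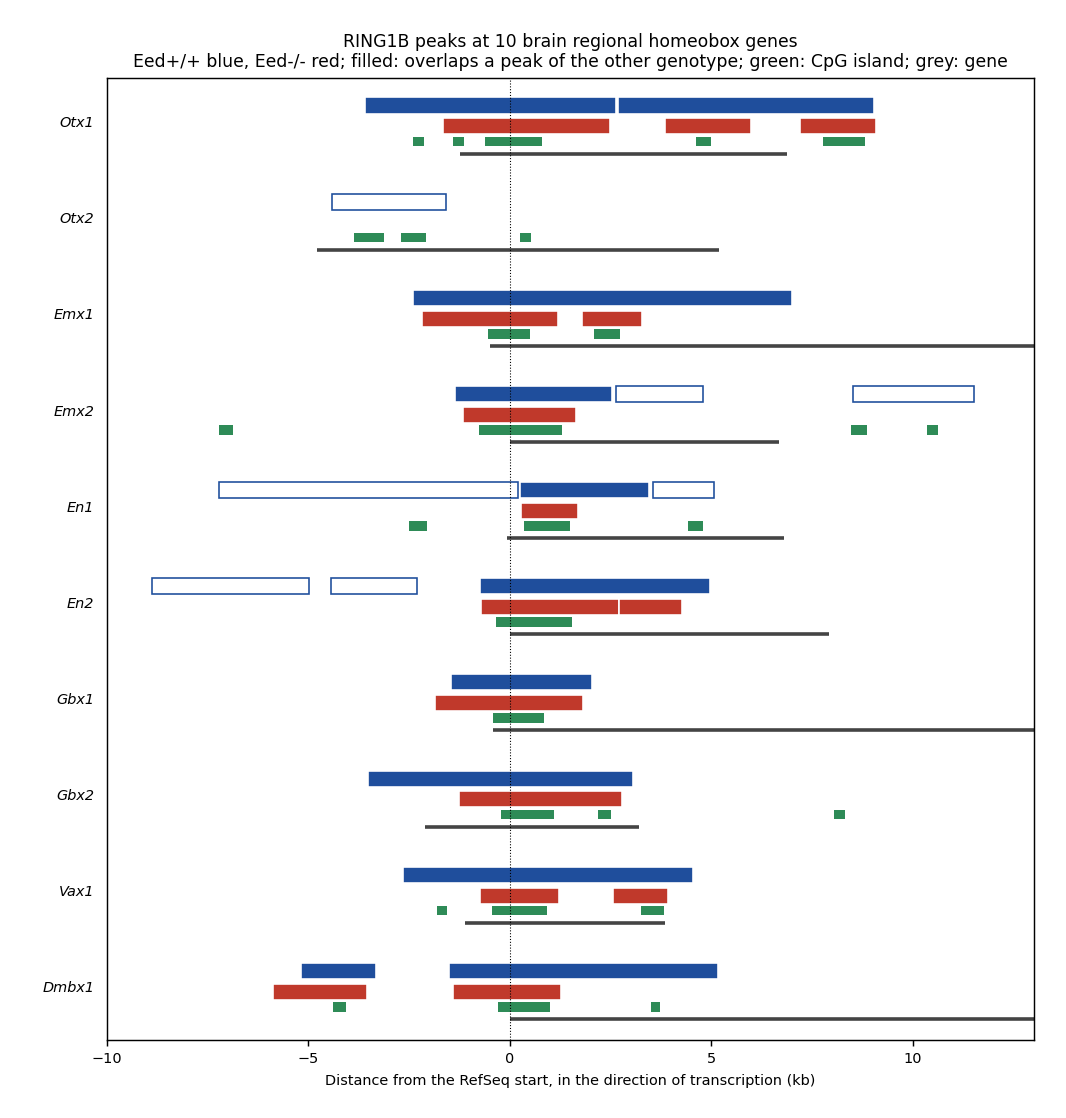
RING1B peaks along the 10 genes, drawn in the direction of transcription with the RefSeq start at 0 (x axis, kb). Eed+/+ peaks are blue, Eed-/- peaks red, CpG islands green and the annotated gene grey, with filled boxes for peaks that overlap the other genotype and open boxes for those that do not. The red boxes lie within or across the edge of filled blue boxes, Otx2 has none, and the far upstream Eed+/+ peaks of Gbx2, En2 and Dmbx1 lie outside the window.

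The Otx genes differed from each other in both lists. Otx1 occupies chromosome 11 between 21894767 and 21902900 on the - strand of mm9. In Eed+/+ cells 2 peaks separated by 55 bp covered all of the gene but that gap, and its flanks, from 21892633 to 21898975 with 1426 tags and from 21899031 to 21905243 with 868 tags. The RING1B level, taken throughout as tags per kb of peak width per 1000000 mapped tags, was 13.4 (95% Poisson interval 12.7 to 14.1) in the first peak and 8.31 (7.77 to 8.88) in the second. The first, over the 3′ part of the gene, had the highest level of the 21 peaks.
Eed-/- cells had 3 Otx1 peaks. One covered the start (21899166 to 21903312, level 1.22, interval 1.09 to 1.35), one lay in the gene (21895671 to 21897793, level 1.57, 1.37 to 1.78) and one lay downstream of the 3′ end (21892562 to 21894451, level 2.14, 1.90 to 2.41). The last had the highest level of the 15 Eed-/- peaks, and its summit lay on a CpG island 8445 bp downstream of the start. Otx1 thus had Eed-/- peaks over its start, in the gene and beyond its 3′ end, and they covered 64.4% of the Eed+/+ bases.
Otx2 (chromosome 14, 49277354 to 49287319, - strand) had a single Eed+/+ peak, from 49284134 to 49286951. It held 158 tags at a level of 3.33 (interval 2.83 to 3.90) and a fold enrichment over background, as the authors' peak caller gave it, of 11.3. That fold enrichment ranked 1697 of 2347, whereas each of the other 9 genes had a peak of at least 28.2. The peak touched 2 CpG islands but lay 1588 to 4405 bp upstream of the RefSeq start, within the longer gene of the GENCODE annotation. The nearest Eed-/- peak was 1779881 bp away, and neither list had a peak under another name within 100 kb of the gene.

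At the Emx genes the Eed-/- peaks lay around the start. Emx1 (chromosome 6, 85137432 to 85154456, + strand) had the widest Eed+/+ peak of the set, 9407 bp from 85135523 to 85144929, with 1060 tags and a level of 6.70 (interval 6.30 to 7.12). Inside it were Eed-/- peaks over the start (85135742 to 85139113, 287 tags, level 1.21, 1.07 to 1.36) and in the first part of the gene (85139703 to 85141204, 127 tags, level 1.20, 1.00 to 1.43). Each lay on a CpG island of its own, and the intervals of their levels overlap.
Emx2 (chromosome 19, 59533180 to 59539847, + strand) had the highest fold enrichment of the 21 peaks, 62.8, which ranked 21 in the Eed+/+ list. This peak over the start (59531821 to 59535711) held 742 tags at a level of 11.3 (interval 10.5 to 12.2), and the only Eed-/- peak of the gene lay inside it (59532011 to 59534821, 275 tags, level 1.39, 1.23 to 1.57). The summits were 44 bp apart. A further Eed+/+ peak in the gene (59535802 to 59537961, level 3.28) began 90 bp after the first, and another downstream of the gene (59541678 to 59544696, level 4.41) had a fold enrichment of 30.8. No Eed-/- peak overlapped either of them.

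The En genes together held 5 of the 10 Eed+/+ peaks without an Eed-/- partner, 3 at En2 and, as at Emx2, 2 at En1. En1 (chromosome 1, 122498995 to 122505873, + strand) had 3 nearly continuous Eed+/+ peaks with gaps of 42 and 90 bp. Together they spanned 12276 bp from 122491846 to 122504121 and stopped short of the 3′ end of the gene. Their levels were 4.66 (interval 4.28 to 5.05) upstream, 11.97 (11.1 to 12.9) over the first part of the gene and 6.02 (5.10 to 7.05) over a later part. The middle peak, whose summit lay in the CpG island next to the start, was the highest.
The only Eed-/- peak of En1, from 122499343 to 122500747, lay within the middle peak. It was 1405 bp wide and had 191 tags at a level of 1.93 (interval 1.67 to 2.23), with its summit 14 bp from that of Eed+/+ cells. Its GC content of 66.2% and its 91.1 CG per kb were the highest of the 36 peaks at the 10 genes. It covered 11.6% of the Eed+/+ bases, the lowest share among the 9 genes with an Eed-/- peak, and it began 280 bp after the RefSeq start. En1 was the 1 gene of the 9 with no Eed-/- peak over that start. That start lay instead under the upstream Eed+/+ peak, which held 581 tags, reached 204 bp past the start and ended 75 bp before the Eed-/- peak, and so counted as not overlapped.
En2 (chromosome 5, 28492236 to 28500152, + strand) had 4 Eed+/+ peaks. The one over the start (28491491 to 28497189) held 925 tags at a level of 9.65 (interval 9.04 to 10.3) and contained the Eed-/- peaks from 28491518 to 28494938 (422 tags, level 1.75, 1.59 to 1.93) and from 28494941 to 28496507 (107 tags, level 0.971, 0.796 to 1.17). These were 2 bp apart, the first on a CpG island and the second on none. The 3 upstream Eed+/+ peaks had summits 3841, 6406 and 47702 bp before the start and levels of 3.90, 4.68 and 2.99. None had an Eed-/- peak, and none had its summit in a CpG island.

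The Gbx genes had 1 Eed-/- peak each, over the start. Gbx1 (chromosome 5, 24008575 to 24033094, - strand) had 1 peak in each list, from 24030619 to 24034132 with 420 tags (level 7.11, interval 6.44 to 7.82) and from 24030862 to 24034517 with 313 tags (level 1.22, 1.09 to 1.36). It was the only gene whose Eed-/- peaks covered more bases than its Eed+/+ peaks, 3656 against 3514 bp.
Gbx2 (chromosome 1, 91824537 to 91829865, - strand) had an Eed+/+ peak across the gene (91824685 to 91831272, 573 tags, level 5.17, interval 4.76 to 5.61) with an Eed-/- peak inside it (91824966 to 91829002, 376 tags, level 1.32, 1.19 to 1.46). A second Eed+/+ peak assigned to Gbx2 (91864423 to 91866425, 166 tags, level 4.93, 4.21 to 5.74) lay 37478 bp upstream with its summit inside another gene, Asb18. It had 59.9 CG per kb and a summit in a CpG island, its level interval overlapped that of the peak at Gbx2, and no Eed-/- peak lay within 35420 bp. Its fold enrichment was nevertheless 9.96, against 30.1 at Gbx2.

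Vax1 and Dmbx1 each had an Eed-/- peak at the start and another on a separate CpG island. Vax1 (chromosome 19, 59240677 to 59245626, - strand) was covered from end to end in Eed+/+ cells by 1 peak (59239984 to 59247178) with 1036 tags, a level of 8.56 (interval 8.05 to 9.10) and a fold enrichment of 47.5. Eed-/- cells had peaks at its start (59243295 to 59245249, 196 tags, level 1.43, 1.23 to 1.64) and near its 3′ end (59240596 to 59241950, 128 tags, level 1.34, 1.12 to 1.597), each on a CpG island. At 9.12, the fold enrichment of the first was the highest among the 15 Eed-/- peaks and ranked 47 of 1810.
Dmbx1 (chromosome 4, 115587149 to 115612531, - strand) had Eed+/+ peaks over its start (115607369 to 115614039, 726 tags, level 6.47, interval 6.01 to 6.96), 4351 bp upstream (115615843 to 115617712, 135 tags, level 4.29, 3.60 to 5.08) and 22890 bp upstream (115634225 to 115636969, 141 tags, level 3.05, 2.57 to 3.60). Eed-/- peaks overlapped the first (115611268 to 115613951, 213 tags, level 1.13, 0.982 to 1.29) and the second (115616070 to 115618402, 166 tags, level 1.01, 0.863 to 1.18). Their fold enrichments of 4.10 and 4.63 were below the Eed-/- list median of 4.91. The third Eed+/+ peak had the lowest fold enrichment of the 21, 7.77, and was the only one with an FDR above 0, at 0.04%.

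**Figure D3:**
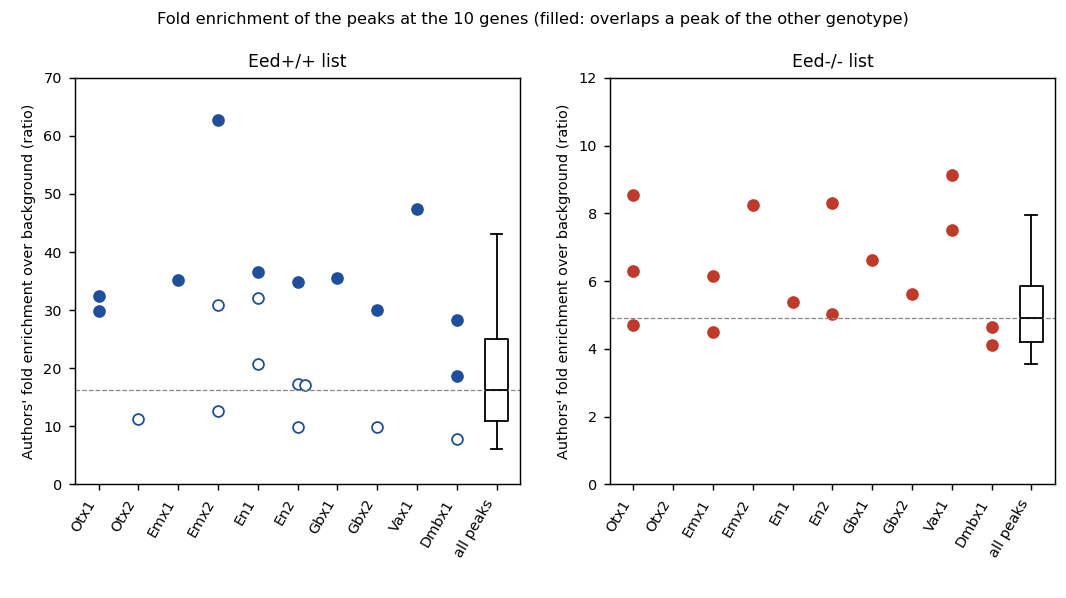
The authors' fold enrichment (y axis, ratio over background, with different scales for the 2 lists) of every peak at the 10 genes, left for Eed+/+ and right for Eed-/-. Filled points overlap a peak of the other genotype; the box shows the quartiles and median of all peaks of the list, with whiskers at its 5th and 95th percentiles, and the dashed line repeats that median. At the 6 genes with several Eed+/+ peaks the uppermost point is filled, and Otx2 has 1 open point and no Eed-/- point.

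Within genes that had several Eed+/+ peaks, the peak of highest fold enrichment was overlapped by an Eed-/- peak, and most lower peaks were not. Otx1, Emx2, En1, En2, Gbx2 and Dmbx1 had more than 1 Eed+/+ peak, and the top peak was overlapped in 6 of 6 (100%, exact 95% interval 54.1 to 100), against 2 of their 11 lower peaks (18.2%, 2.28 to 51.8), which were the second peaks of Otx1 and Dmbx1. Over all 289 genes with at least 2 Eed+/+ peaks, 64.7% of top peaks and 27.5% of lower peaks were overlapped. The En1 peak over the later part of the gene, with a fold enrichment of 32, and the downstream Emx2 peak, with 30.8, were not overlapped. The second Dmbx1 peak was overlapped at 18.7, so fold enrichment did not order the peaks strictly.
When only peaks of both genotypes with an FDR up to 1% were used, the top peak was overlapped in 50.0% of the 6 genes and 9.09% of their lower peaks were. This stricter limit also lowered the share of the 21 Eed+/+ peaks with an overlap from 52.4% to 33.3%. It left 7 of the 15 Eed-/- peaks (46.7%, against 24.1% of the whole Eed-/- list) and removed all those of En2 and Dmbx1. Shares of overlapped peaks over the whole lists were not computed at this limit, so the falls cannot be called particular to these genes.

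Peaks with an Eed-/- partner were also wider, nearer to the start and richer in CpG islands. The summits of the 11 overlapped Eed+/+ peaks lay a median of 857 bp from the RefSeq start (range 186 to 4838) and those of the other 10 a median of 5560 bp (range 839 to 47702), so the ranges overlap. All 11 of the former had their summit in a CpG island, against 4 of the latter (40.0%, interval 12.2 to 73.8). Over the whole Eed+/+ list these shares were 90.4% and 68.6%. The overlapped peaks had a median width of 6213 bp and 742 tags, the others 2781.5 bp and 162 tags. Over the list these medians were 2904 bp and 288 tags against 2462.5 bp and 161 tags. Since 1 bp sufficed for an overlap, width may bear on these contrasts, which was not tested. An Eed+/+ peak covered the RefSeq start in 9 of the 10 genes and an Eed-/- peak in 8. Distance to the start and coverage of it were computed for the 10 genes only, so no whole-list values stand beside them. Of the 15 Eed-/- summits, 12 lay in a CpG island (80.0%, against 83.7% of all Eed-/- peaks).
The peaks at these genes were strong for their lists, and those of Eed+/+ cells were also wide. In Eed+/+ cells the median width was 3521 bp and the median fold enrichment 29.8, against 2665 bp and 16.2 over all peaks. In Eed-/- cells these medians were 2333 bp and 6.16, against 2155 bp and 4.91, and 8 of the 15 peaks were wider than the list median. By contrast, the median GC content of the Eed+/+ peaks was lower, 54.5% against 58.3% over the list, as was the CG density, 38.5 against 50.1 per kb. Of the Eed+/+ peaks, 4 of 21 contained or touched 2 Eed-/- peaks (19.05%, against 2.90% of all), namely those of Emx1, Vax1, En2 and the 3′ part of Otx1.

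RING1B levels, scaled to mapped tags, were lower in Eed-/- cells in all 11 pairs of overlapping peaks. Each overlapped Eed+/+ peak was matched to the Eed-/- peak with which it shared the most bases. The median level was 8.31 (range 4.29 to 13.4) in Eed+/+ and 1.32 (range 1.01 to 1.93) in Eed-/- cells, so the groups did not overlap. Over all 1247 pairs these medians were 5.78 and 1.33, so the pairs at these genes stood above the list in Eed+/+ but not in Eed-/- cells. The ratio of Eed-/- to Eed+/+ had a median of 0.171 and ranged from 0.117 at the 3′ peak of Otx1 (95% interval 0.102 to 0.135) to 0.256 at Gbx2 (0.224 to 0.292), whose intervals do not overlap. The Otx1 value rests on the matching, since this Eed+/+ peak overlapped 2 Eed-/- peaks. It was 0.160 with the downstream one, of higher level, and 0.138 with both taken over their joint width, above the value of Emx2. Emx2 (0.123, 0.106 to 0.141) and the start of Otx1 (0.146, 0.129 to 0.166) had the next lowest ratios by the matching used. En1 (0.161), Vax1 (0.166), Gbx1 (0.171), Dmbx1 at its start (0.174), Emx1 (0.181) and En2 (0.182) followed with intervals that overlap each other, and the upstream pair of Dmbx1 had 0.236 (0.187 to 0.298). The level was at least 2-fold lower in 11 of 11 pairs, against 97.8% of all 1247 pairs, and 9 of the 11 ratios lay below the median of all pairs, 0.225.
The direction rests on the scaling. By conventional ChIP at selected target loci, the study reported greatly reduced RING1B occupancy in Eed-/- cells. It also described much lower RING1B signal in Eed-/- cells at example target loci in this ChIP-seq. Scaled to the sum of tags within each list's own peaks, which is 4.40% of mapped tags in Eed+/+ and 0.625% in Eed-/- cells, the median ratio was 1.20 and 9 of 11 pairs were higher in Eed-/- cells (median of all pairs 1.58). Such a scaling divides out any change that all peaks share. By the ratio of the authors' fold enrichments the median was 0.186, with all 11 pairs lower in Eed-/- cells (median of all pairs 0.248). Levels include background tags. At the Eed+/+ depth, 1 of the 15 Eed-/- peaks would have exceeded 100 tags (6.67%, against 6.63% of the whole Eed-/- list). It was the peak at the En2 start, with 100.9.

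**Figure D4:**
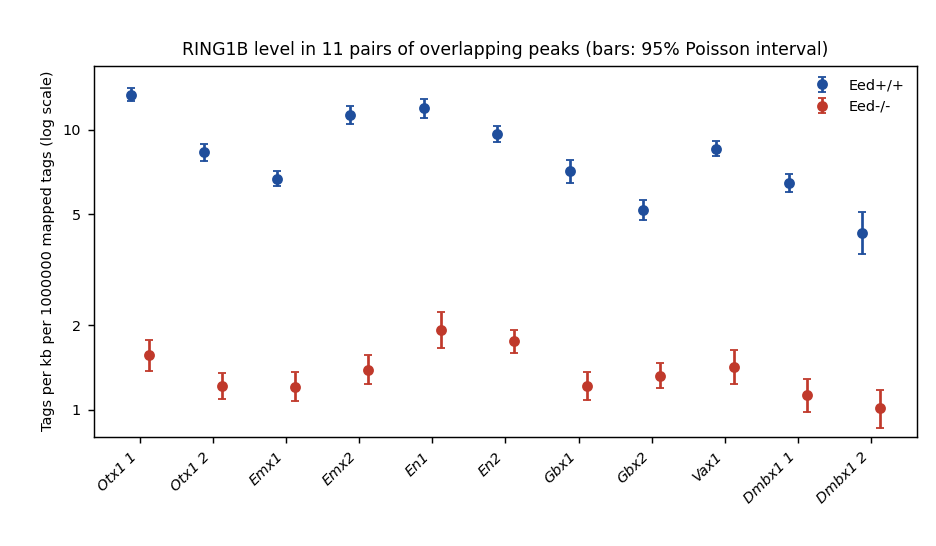
RING1B level on a log scale (y axis, tags per kb of peak width per 1000000 mapped tags) of the 11 overlapping pairs (x axis), with Eed+/+ in blue and Eed-/- in red. Bars are 95% Poisson intervals (counting error only), and the numbers after Otx1 and Dmbx1 count their Eed+/+ peaks by coordinate. Eed+/+ levels run from 4.29 to 13.4 and Eed-/- levels from 1.01 to 1.93.

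The Eed-/- peak was the narrower in 9 of 11 pairs and the wider at Gbx1 and in the upstream pair of Dmbx1 (2333 against 1870 bp). The Eed+/+ peak enclosed its Eed-/- partner completely in 9 of 11 pairs (81.8%, interval 48.2 to 97.7), against 57.4% of all pairs, the exceptions being the same 2 pairs. Summits were a median of 44 bp apart (range 7 to 910), against 97 bp over all pairs. The 4 longest shifts, 489 bp at Gbx2, 738 bp at En2, 765 bp at Gbx1 and 910 bp at Vax1, all put the Eed-/- summit further upstream. When all called Eed-/- tags were spread over the whole width of the Eed+/+ peak, a value that counts uncalled stretches as empty and was added after the data had been seen, the median ratio was 0.0934.
Of the 10 Eed+/+ peaks with no overlap, the level in Eed-/- cells was not measured. If each had kept 0.171 of its level over its width, it would have held 85.2 to 416 tags at the Eed-/- depth, with 9 of 10 above 100 and only the second Emx2 peak below. The highest of these values belonged to the upstream En1 peak, and the values for the third Dmbx1 peak (101.0) and the En2 peak nearest to its start (100.3) were at the threshold. The ratio of 0.171 was taken inside called Eed-/- peaks, most of which were narrower than their Eed+/+ partners. The ratio over the whole Eed+/+ width, 0.0934, would give lower values, so the number above 100 depends on the ratio chosen. Whether these peaks fell below the threshold or were lost was not tested. The FDR limit is not part of this arithmetic.
When peaks of a list no more than 1 kb apart were joined, also an addition made after the data had been seen, the 21 Eed+/+ peaks formed 16 domains, of which 10 were overlapped (62.5%, interval 35.4 to 84.8), against 55.8% over the list. The 6 without an Eed-/- peak were Otx2, the downstream Emx2 domain, both upstream En2 domains and the far peaks of Gbx2 and Dmbx1.

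Close relatives and other genes of brain patterning were counted in the same way, with no test between the lists. Of 7 related homeobox genes (Crx, Vax2, Noto, Hesx1, Rax, Otp and Gsc), 3 had peaks in both lists and 4 had none. Gsc had the highest Eed+/+ fold enrichment, 60.01, with 7.91 in Eed-/- cells. Otp of the hypothalamus had 54.2 and 6.68, and Rax of the eye field 35.5 and 5.05. An Eed-/- peak overlapped 4 of the 5 Eed+/+ peaks of these relatives.
Of 35 signalling and transcription factor genes of regional brain patterning, 27 had peaks in both lists, 7 in Eed+/+ only and 1 in Eed-/- only. Among the first, the highest Eed+/+ fold enrichments were at the orphan receptor gene Nr2f2 (68.4), Nkx2-1 of the ventral forebrain (63.7), Dlx2 of the ganglionic eminences (59.1) and Pax2 of the midbrain-hindbrain border (58.2), where the Eed-/- maxima were 9.91, 5.67, 7.2 and 7.52. Among those with no Eed-/- peak, Sp5 had 51.2, Meis2 40.9 and Hoxa2 39.2, each above the 11.3 of Otx2. Six3 was the gene named in Eed-/- only, and its Eed-/- peak (fold enrichment 6.00) overlapped an Eed+/+ peak assigned to its antisense neighbour Six3os1. In all, 35 of 80 Eed+/+ peaks of this list were overlapped (43.8%) and 48 of 48 Eed-/- peaks, with a median level ratio of 0.156 in the pairs.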

How the data were processed

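The authors mapped tags uniquely with bowtie to the mm9 genome and ran MACS on each genotype, keeping peaks with an FDR below 2% and more than 100 tags. Neither the tool versions nor the control given to MACS is stated in the sources used here. The 2 deposited lists hold the raw tag count of a peak, its fold enrichment as a ratio to background, its FDR as a percent and a p-value score, with the nearest gene from CisGenome and the authors' scripts. Columns that flag the authors' own overlaps between peak sets were not used. Levels were scaled to the mapped tags the study states, without input subtraction. Peaks sharing 1 bp overlapped. RefSeq starts were taken from the authors' distances. Gene positions came from GENCODE M1, and CpG islands from a running score (17 for CG, -1 otherwise, at least 200 bp, above 50% GC, observed to expected CG above 0.6) on the same build. Intervals are exact 95% Poisson, binomial (Clopper-Pearson) or conditional ratio intervals. The overlap, island and interval code was tested on simulated data. The 10 genes and the gene lists were chosen with earlier results of these data known. All peaks of the 10 genes are described, and from the other lists up to 4 genes per class with the highest fold enrichment, of which 1 is not reported here. Python 3.11.15, numpy 2.4.6, scipy 1.17.1, numba 0.67.0 and matplotlib 3.10.9 were used.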

Additional observations from a re-analysis of the deposited data

How the results depend on the processing

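With 1 list per genotype, no value could be tested between genotypes and no sample could be left out. No paired analysis was possible because each genotype has a single list. Regions below the peak threshold have no value, and the Eed-/- list reaches lower levels than the Eed+/+ list. At an FDR of 1% or less, 7 rather than 15 Eed-/- peaks remained (46.7%, against 24.1% of the whole Eed-/- list). The bases covered by Eed-/- peaks fell to 23.3% of those in Eed+/+ cells from 41.7%. Of top peaks 50.0% rather than 100%, and of lower peaks 9.09% rather than 18.2%, were overlapped. The share of Eed+/+ peaks at these genes with an overlap was then 33.3% rather than 52.4%. This is more than 1.5 times lower though within the wide interval of the latter. Requiring more than 100 tags at the Eed+/+ depth left 1 Eed-/- peak (6.67%, against 6.63% of the whole Eed-/- list). An overlap of at least 50% of both peaks gave 28.6% of Eed+/+ and 40.0% of Eed-/- peaks. Shares of overlapped peaks over the whole lists were not computed at this overlap or at the FDR limit of 1%. These falls therefore cannot be called particular to the 10 genes. The median level ratio of 0.171 became 0.716 with tags per kb left unscaled, 1.20 with tags scaled to the sum within peaks, which turns its direction, and 0.0934 with called Eed-/- tags over the whole Eed+/+ width. The first 2 of these changes follow from the scaling factors themselves. The other 14 alternatives, such as taking peaks within 10 kb of the genes, stayed within 1.5 times the count or within the 95% interval of the value.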

Other observations

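Within 100 kb of the 10 genes, the lists held 5 further peaks that the authors assigned to other genes. Smarcd3, which encodes a chromatin remodelling subunit and lies near Gbx1, had a peak in both lists, with a level of 5.12 in Eed+/+ (24106397 to 24111427 on chromosome 5, fold enrichment 16.0) and 1.37 in Eed-/- cells (24106464 to 24111192, fold enrichment 3.99). On the other side of Gbx1, a peak near Agap3 (23979826 to 23981374, 146 tags, level 1.34) was called in Eed-/- cells and not in Eed+/+ cells. A peak near Kncn, 14957 bp from Dmbx1 (level 4.35), and a peak near 4930506M07Rik, 90036 bp from Vax1 (level 5.32), were called in Eed+/+ cells and not in Eed-/- cells.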
